A study of Mus musculus with 10 samples.

Results

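The primed epiblast genes described here are 8 genes, chosen by name as markers of the epiblast after implantation: Fgf5, Otx2, Pou3f1, Sox3, Foxd3, Zic2, Sfrp2 and Pim2. Every probe on the array whose gene name is one of these was taken, which gave 8 probes, 1 for each gene and each spotted once, of 39429 probes that carry 31539 gene names. All 8 passed the filter on dim spots that left 25869 probes to test.

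RNA was compared on 10 two-colour Agilent arrays between mouse embryonic stem (ES) cell lines that lacked Tet1 and Tet2 (DKO), Tet2 (T2KO), Tet1 (T1KO) or neither (wild type, WT). The 11 labelled lines were DKO 51 and 61 (male) and 60 and 59 (female), T2KO 16 (male), T1KO 99 and 65 (male), and WT 6 and 92 (male) and 7 and 94 (female). Each DKO line shared its array with a WT line of the same sex (51 with 6, 61 with 92, 60 with 7, 59 with 94), T2KO 16 shared its 2 arrays with T1KO 65, and the channel beside T1KO 99 held cells that the submitters set aside for their genotype and that enter no comparison. All lines came from mice of a mixed C57BL/6 background, were grown with the cytokine LIF on irradiated feeder cells, and were freed of feeders by preplating before RNA was taken. DKO and T2KO RNA was labelled with Cy5 and T1KO and WT RNA with Cy3, with no dye swap, so that DKO and WT, or T2KO and T1KO, always differ in dye as well. T2KO is 1 line. The 3 slides held the male DKO pairs, the female DKO pairs and the single knockouts, so sex lies with slide.

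Mouse ES cells grown with LIF resemble the naive epiblast of the blastocyst. When they leave that state, FGF and ERK signalling together with factors such as OTX2 and POU3F1 lead them through a formative to a primed state like that of the implanted epiblast, in which Fgf5 is a classical marker. TET1 and TET2 oxidise 5-methylcytosine in DNA, and enhancers that come into use at this step are among their known substrates.

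Each gene was read by 1 oligonucleotide of 60 bases. The middle 30 bases (16 to 45) of each probe, as the array files give them, are shown so that it is plain which stretch of each transcript every value below stands for. They are printed 5′ to 3′ with no base marked.
Fgf5: gtataagtgttcaccttatattcctaaatg
Otx2: gattgtgcgactgattgtcctagatgcact
Pou3f1: accatttcttcatctgtttgttaaggtttc
Sox3: gttccaggttttttcaaagttttgttctta
Foxd3: tctgagaaaaagaatgtataaagacgttgg
Zic2: gaaataacacccttctgtaaatatccgttg
Sfrp2: tcaaacatttcgttgctcgttttatgccct
Pim2: gatggacatctgttgacctggttatacagg

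On mm9, the build the files use, the full probes lie at chr5:98705980-98706039 on the plus strand (Fgf5), chr14:49277855-49277914 on the minus strand (Otx2), chr4:124337692-124337751 on the plus strand (Pou3f1), chrX:58144564-58144623 on the minus strand (Sox3), chr4:99325170-99325229 on the plus strand (Foxd3), chr14:122879296-122879355 on the plus strand (Zic2), chr3:83577864-83577923 on the plus strand (Sfrp2) and chrX:7459678-7459737 on the plus strand (Pim2). Exon and UTR annotation was not used here. All 8 probes were well above background in all 18 labelled channels, 144 of 144 values, so the RNA held measurable transcript of every member in every genotype. Feeder markers were also read in every line, and which cells each transcript came from was not tested.

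The targeted genes were low where the labels say they are deleted. The Tet1 log2 ratio of DKO over WT was -2.05, -1.97, -2.11 and -2.30 in the pairs 51/6, 61/92, 60/7 and 59/94, and that of Tet2 was -2.28, -1.39, -2.35 and -2.37. T2KO 16 over T1KO 65 gave 1.99 for Tet1 and -1.69 for Tet2. Whether the probes lie in the deleted exons is not given in the sources used here. One pair stood apart from the others in genes outside the members. In DKO 60 over WT 7, markers of feeder fibroblasts had a median log2 ratio of 0.86 with 17 of 17 above 0, against medians of -0.45 to -0.05 in the other DKO pairs, markers of the 2-cell-like state had -0.98, against 0.48 to 0.54, and the 1045 probes on the X chromosome had 0.45, against -0.01 to 0.21. Its ratios over all probes correlated with those of the other DKO arrays at 0.191 to 0.451, against 0.325 to 0.468 among arrays of the other pairs and 0.919 to 0.955 between repeat arrays. The lowest of these were with 51/6 (0.191 and 0.197), while 60/7 gave 0.315 with 61/92 and 0.40 and 0.451 with 59/94. These correlations therefore do not set 60/7 apart from 51/6. Results that rest on this pair are given with and without it.

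Levels below are normalized log2 intensities, averaged over repeat arrays of a line, and are compared between lines for 1 probe at a time. In the 3 pairs with repeat arrays, the levels of a line differed by at most 0.24 in Cy5 and 0.35 in Cy3 between repeats for these 8 probes, and the ratios by at most 0.27. In bulk RNA, fewer cells that express a gene and less RNA per cell cannot be told apart.

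Fgf5 encodes a secreted FGF ligand. Its level was 9.14, 10.55, 11.06 and 11.31 in DKO 51, 61, 60 and 59, 7.43 in T2KO 16, 9.98 and 10.54 in T1KO 99 and 65, and 9.40, 9.20, 7.41 and 9.29 in WT 6, 92, 7 and 94. Fgf5 was highest in the female DKO lines and lowest in WT 7 and T2KO 16, and T2KO 16 lay 1.71 below the next line, DKO 51. DKO 51 lay within the range of the WT lines, so the groups overlapped. In order of their means the genotypes were DKO (10.52, SD 0.971, n = 4), T1KO (10.26, n = 2), WT (8.82, SD 0.95, n = 4) and T2KO (1 line). DKO and T1KO differed by less than the spread of the DKO lines, and T2KO lay inside the range of the WT lines only by way of WT 7.

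Otx2 encodes a homeodomain factor that moves naive cells towards the formative state. Its level was 13.04, 13.43, 14.18 and 13.17 in DKO 51, 61, 60 and 59, 13.09 in T2KO 16, 12.31 and 13.16 in T1KO 99 and 65, and 13.62, 13.28, 12.32 and 13.46 in WT 6, 92, 7 and 94. DKO 60 was the highest line, and T1KO 99 and WT 7 were the lowest. The genotype means of DKO (13.45, SD 0.509), WT (13.17, SD 0.583), T2KO and T1KO (12.73) lay within the spread of the WT lines from one to the next.

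Pou3f1 encodes a POU domain factor, also called OCT6, that favours the neural fate. Its level was 10.88, 11.68, 11.72 and 11.35 in DKO 51, 61, 60 and 59, 10.02 in T2KO 16, 11.35 and 11.94 in T1KO 99 and 65, and 11.84, 11.31, 10.10 and 11.43 in WT 6, 92, 7 and 94. T2KO 16 and WT 7 stood below all other lines, and the remaining 9 lines overlapped whatever their genotype.

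Sox3, an X-linked SOXB1 factor of the epiblast and the early neural plate, had levels of 10.72, 11.63, 11.31 and 12.13 in DKO 51, 61, 60 and 59, 9.86 in T2KO 16, 10.87 and 12.02 in T1KO 99 and 65, and 10.70, 10.84, 10.06 and 10.68 in WT 6, 92, 7 and 94. The lines DKO 61, 60 and 59 lay above all WT lines, while DKO 51 lay among them. Sox3 had the second smallest spread over WT lines of the 8 genes (SD 0.345, n = 4), and T2KO 16 was its lowest line.

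Foxd3 encodes a forkhead factor needed to maintain the epiblast. Its level was 9.48, 9.76, 9.93 and 9.38 in DKO 51, 61, 60 and 59, 9.28 in T2KO 16, 9.60 and 9.0 in T1KO 99 and 65, and 10.01, 9.03, 8.90 and 9.61 in WT 6, 92, 7 and 94. Its 11 lines spanned 1.11, the least of the 8 genes, and all genotype means lay within the SD of the WT lines (0.52) of each other.

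Zic2 encodes a zinc finger factor that binds enhancers in ES cells. Its level was 11.43, 11.61, 11.41 and 11.33 in DKO 51, 61, 60 and 59, 10.77 in T2KO 16, 10.88 and 11.13 in T1KO 99 and 65, and 11.91, 10.21, 10.72 and 10.64 in WT 6, 92, 7 and 94. The DKO lines lay close together (SD 0.121, n = 4) and above 3 of the 4 WT lines, and WT 6 was above them all. The WT lines spanned 1.70.

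Sfrp2 encodes a secreted protein related to Frizzled receptors that modulates WNT signalling. Its level was 11.02, 10.80, 10.67 and 10.66 in DKO 51, 61, 60 and 59, 9.67 in T2KO 16, 11.35 and 11.52 in T1KO 99 and 65, and 11.24, 10.79, 9.44 and 11.15 in WT 6, 92, 7 and 94. As for Pou3f1, T2KO 16 and WT 7 stood below the other 9 lines. The T1KO lines were the highest, and the DKO lines spanned 0.36, against 1.79 for the WT lines.

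Pim2 encodes an X-linked serine/threonine kinase that promotes survival. Its level was 10.05, 10.57, 11.11 and 10.70 in DKO 51, 61, 60 and 59, 9.50 in T2KO 16, 10.08 and 10.40 in T1KO 99 and 65, and 11.09, 10.66, 10.63 and 10.52 in WT 6, 92, 7 and 94. Its WT lines were the closest of the 8 genes (SD 0.254), and WT 7 was not low for this gene. T2KO 16, DKO 51 and both T1KO lines lay below every WT line.

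**Figure D1:**
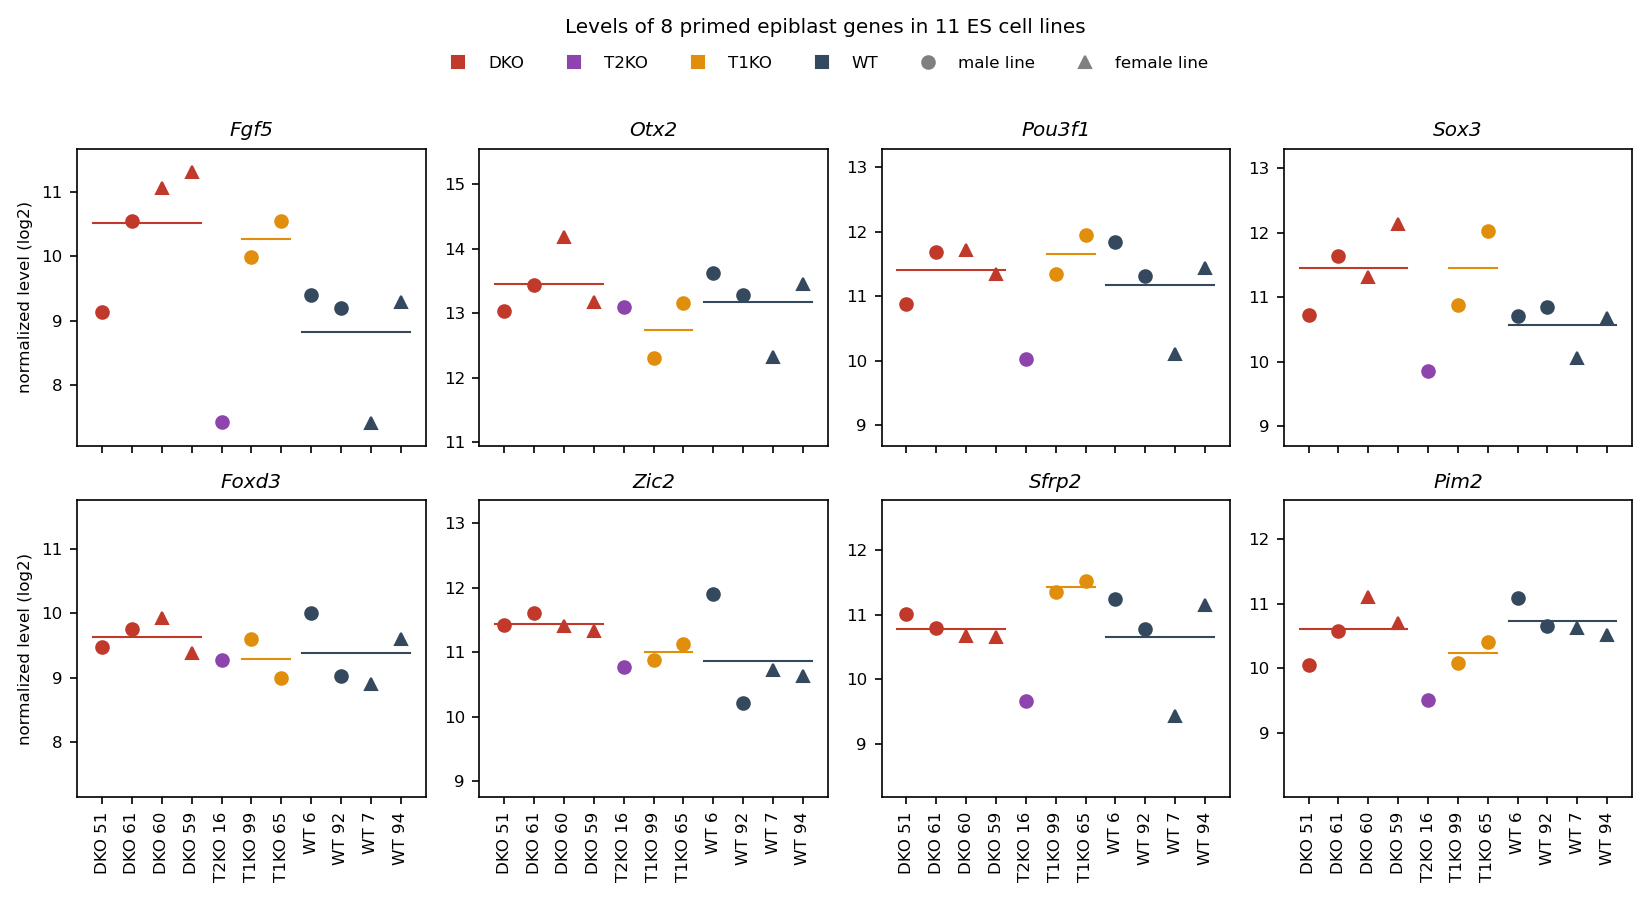
Normalized log2 level of each gene (vertical axis, with the same span in every panel) in the 11 lines (horizontal axis, DKO, T2KO, T1KO and WT from left to right); circles are male and triangles female lines, and horizontal lines are genotype means where there is more than 1 line. T2KO 16 and WT 7 are the lowest lines for Fgf5, Pou3f1, Sox3 and Sfrp2, and Foxd3 spans the least.

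The members varied more between lines of 1 genotype than most probes did. Their SD over the 4 WT lines was 0.254 (Pim2) to 0.95 (Fgf5), against a median of 0.159 over all tested probes, and for each member between 76.4% and 99.1% of probes had a smaller one. WT 7 was the lowest of the 4 WT lines for 6 members (Fgf5, Otx2, Pou3f1, Sox3, Foxd3 and Sfrp2), against 32.3% of all tested probes. Among the 6 lines in Cy3, WT 7 was the lowest for 5 members, against 23.4% of probes. T2KO 16 was the lowest of the 5 lines in Cy5 for 7 members, all but Otx2, against 28.4% of probes. These orders describe 1 line each and have no test. Centred on each probe's mean within its dye, the median over the 8 members was -0.75 in WT 7 and -0.89 in T2KO 16, and -0.30 to 0.52 in the other 9 lines. The same centred median over the 17 feeder markers was -0.52 in WT 7 and -0.31 in T2KO 16, and -0.25 to 0.42 in the others. Their part in the members' low levels was not tested. The linear intensities of the 17 feeder markers, out of 18 on the list, summed to 76956 to 111562 in the DKO lines, 68303 in T2KO 16, 102199 to 123238 in the T1KO lines and 66133 (WT 7) to 162312 (WT 92) in the WT lines.

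For the 8 genes the lines did not share 1 common order. Over the levels of the 11 lines, which share arrays in pairs, Fgf5 and Sox3 had the highest Pearson r (0.924, Spearman 0.882), and it was 0.863 without the 2 lines farthest from the median of Fgf5. Pou3f1 and Sfrp2 had 0.853, which fell to 0.258 without the 2 lines farthest from the median of Pou3f1, and so rested on those lines. Sox3 and Foxd3 had the lowest r of the 28 pairs (0.121). These values are descriptions over lines of 4 genotypes.

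Comparing the DKO lines with the WT lines on their own arrays asks how the loss of both enzymes changes these genes. None of the 8 passed the test, and 7 had a mean log2 ratio above 0. Fgf5 averaged 1.69 (SE 0.614, 3.23-fold) and Sox3 0.88 (SE 0.243, 1.84-fold), while Pim2 averaged -0.12 (SE 0.254). The test was limma's moderated test over the 4 pairs with Benjamini-Hochberg adjustment over all tested probes, called at an adjusted p under 0.05. It called 0 of 8 members, with adjusted p from 0.109 (Sox3) to 0.801 (Sfrp2) and 2 members under 0.05 before adjustment (Fgf5 and Sox3). Of all 25869 tested probes it called 4.0% (633 rose, 402 fell), and 6720 were under 0.05 before adjustment. The median of the members was 0.27, against 0.02 for all tested probes.

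By pair, the Fgf5 ratio was -0.27 in 51/6, 1.35 in 61/92, 3.65 in 60/7 and 2.02 in 59/94. Fgf5 thus pointed up in 3 of 4 pairs, and its 95% interval of 0.14 to 3.24, not adjusted for the number of probes, shows how loosely 4 pairs fix it. The Sox3 ratio was 0.03, 0.79, 1.25 and 1.44 in the same order of pairs. Sox3 was the only member with the same sign in all 4 pairs, 1 of 8, against 36.8% of all tested probes. Its 2 repeat arrays of 51/6 gave -0.03 and 0.09, so the sign in that pair is not settled. No member had DKO and WT levels that did not overlap, against 13.3% of probes.

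The other factors differed in sign between pairs. Otx2 had -0.58, 0.15, 1.86 and -0.30 (mean 0.28, SE 0.415, adjusted p = 0.701 by limma). Pou3f1 had -0.97, 0.36, 1.63 and -0.07 (mean 0.24, SE 0.41, adjusted p = 0.747 by limma). Foxd3 had -0.54, 0.74, 1.03 and -0.23 (mean 0.25, SE 0.288, adjusted p = 0.62 by limma). In these 3 genes the pair 60/7 gave the highest value and 51/6 the lowest. Zic2 had -0.48, 1.40, 0.69 and 0.68 (mean 0.57, SE 0.299, adjusted p = 0.288 by limma), with 51/6 as the only pair below 0.

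Sfrp2 had -0.21, 0.00, 1.23 and -0.48 (mean 0.13, SE 0.291), so 60/7 was the only pair clearly above 0. Pim2 had -1.05, -0.09, 0.47 and 0.18. In the pair 51/6 the median over the 8 members was -0.51, in 61/92 0.55, in 60/7 1.24 and in 59/94 0.05. The 60/7 ratios combine a DKO line that was high for some members with a WT line that was low for 6 of them.

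**Figure D2:**
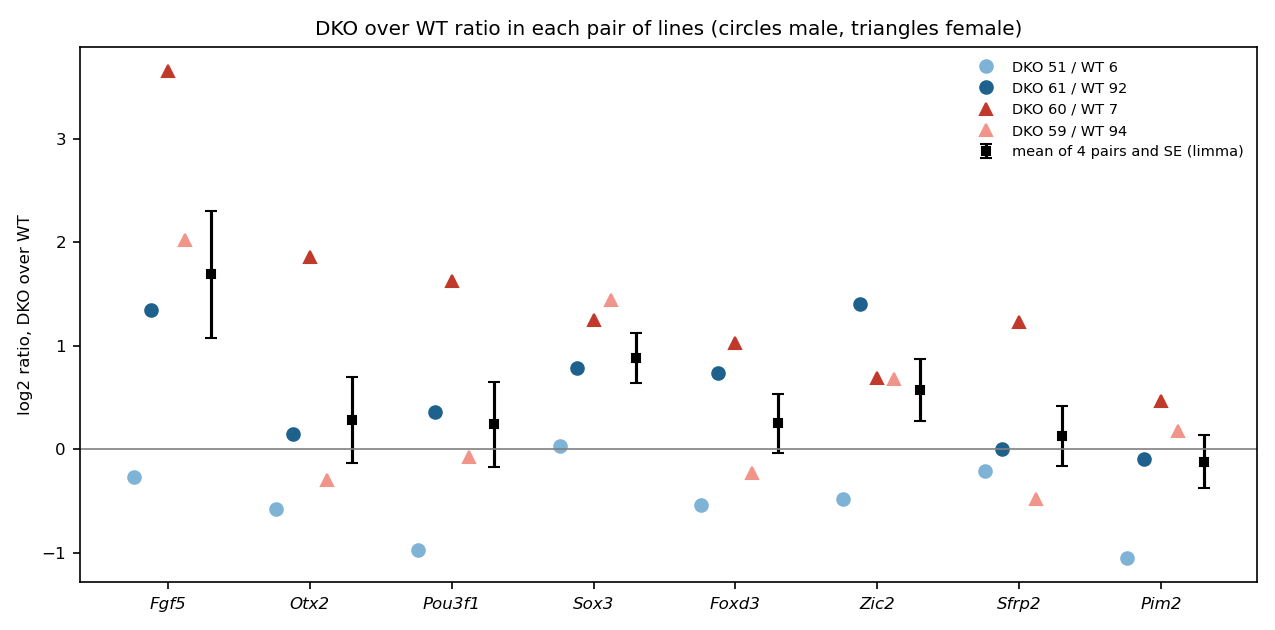
Log2 ratio of DKO over WT for each gene (horizontal axis) in the 4 pairs of lines, male pairs as circles and female pairs as triangles, with the mean of the 4 pairs and its standard error as a black square and bar. The pair DKO 60 / WT 7 gives the highest value for 6 of the 8 genes, and DKO 51 / WT 6 lies below 0 for all but Sox3.

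Without the pair 60/7, the mean ratio was 1.04 for Fgf5, 0.75 for Sox3 and 0.54 for Zic2, and lay below 0 for the other 5: -0.24 for Otx2, -0.23 for Pou3f1, -0.01 for Foxd3, -0.23 for Sfrp2 and -0.32 for Pim2. The Zic2 mean was 0.30 without 61/92 and 0.93 without 51/6, and that of Fgf5 was 2.34 without 51/6. No probe of any gene passed the threshold without 60/7, nor without any other pair. With arrays centred on their median in place of loess, Fgf5 (1.93, adjusted p = 0.0499 by limma) and Sox3 (1.16, adjusted p = 0.0133) passed, but that setting moved the median of all probes to 0.19 and called 8319 of them. Sox3 also passed when every array was kept with the pair as a random block (0.87, adjusted p = 0.0477 by limma).

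The male and the female pairs were compared because lines of the same sex shared arrays. All 8 members had lower ratios in the male than in the female pairs, with log2 differences from -2.29 (Fgf5) to -0.23 (Zic2) and a median of -0.92, against 0.00 for all tested probes. Fgf5 averaged 0.54 in the male and 2.84 in the female pairs, Sox3 0.41 and 1.34, and Pim2 -0.57 and 0.33. None of these differences passed the test (limma, adjusted p from 0.835 to 0.96, 2 members under 0.05 before adjustment), and it called 0% of all probes, with 1309 under 0.05 before adjustment. Without the pair 60/7, a fit added after the data were seen in which 59/94 stands alone for the female pairs, 5 of 8 members were lower in the male pairs and the median difference was -0.23. Fgf5 then differed by -1.48 (SE 0.765) and Sox3 by -1.03 (SE 0.393), while Otx2 (0.08), Foxd3 (0.33) and Sfrp2 (0.38) turned to higher in the male pairs. Feeder markers had a median difference of -0.72 with 0 of 17 above 0 over all pairs, and of -0.20 with 1 of 17 above 0 without 60/7. Their part was not tested, and sex and slide cannot be told apart.

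T2KO 16 and T1KO 65 were hybridised together, so the 2 single losses were set against each other directly. Members were lower in T2KO 16 for 7 of 8, with a median log2 ratio of -1.37, against 0.01 for all tested probes. Fgf5 was 8.65-fold lower (-3.11, SE 0.789), Sox3 4.48-fold lower (-2.16, SE 0.292), Pou3f1 3.8-fold lower (-1.92, SE 0.742) and Sfrp2 3.6-fold lower (-1.85, SE 0.598). Pim2 had -0.90, Zic2 -0.37, Otx2 -0.07 and Foxd3 0.29. None passed the test (limma, adjusted p from 0.27 for Sox3 to 0.979 for Otx2, 3 members under 0.05 before adjustment), which called 0% of all probes, with 3297 under 0.05 before adjustment. Markers of primitive endoderm were also lower, with a median of -0.58 and 1 of 10 above 0, and their linear intensities summed to 9366 in T2KO 16, against 16523 in T1KO 65. Lama1, the brightest of them (12.75 in T2KO 16 and 13.49 in T1KO 65 on the log2 scale), made up most of both sums. Feeder markers had a median of -0.03 with 6 of 17 above 0. The part of primitive endoderm cells in the members' ratios was not tested. The spread in this fit came from the DKO pairs, since there was 1 pair of T2KO and T1KO lines. The sizes depended on the background correction: fitted on all spots it gave -0.40 for Fgf5, -0.82 for Sox3, -0.72 for Pou3f1, -0.56 for Sfrp2 and -0.16 for Pim2, while the scanner software's own ratios gave -3.84, -2.25, -1.97, -1.94 and -0.97 for the same genes.

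T1KO lines were set against male WT lines within Cy3, where no dye separates them but the slide does. The members went both ways: 4 of 8 were above 0 and the median difference was 0.01, against -0.01 for all tested probes. Fgf5 was 0.96 higher (SE 0.588) and Sox3 0.68 higher (SE 0.398), while Otx2 differed by -0.72 (SE 0.44) and Pim2 by -0.63 (SE 0.187). Sfrp2 differed by 0.42, Pou3f1 by 0.07, Zic2 by -0.05 and Foxd3 by -0.22. With the background correction fitted on all spots, Fgf5 differed by 0.24, Sox3 by 0.28 and Sfrp2 by 0.00. Sox3 had 0.10 without T1KO 65 and 1.25 without T1KO 99, and Otx2 had -1.14 and -0.29 in that order. No member passed (limma, adjusted p from 0.299 to 0.974, and Pim2 alone under 0.05 before adjustment), and of all probes 0% passed, with 3450 under 0.05 before adjustment. For 5 members the levels of the 2 T1KO and the 2 male WT lines did not overlap, against 48.9% of probes, which is near the background. Against all 4 WT lines this held for 4 members, against 27.0% of probes: both T1KO lines were above all WT lines for Fgf5, Sox3 and Sfrp2 and below them for Pim2. The gap to the nearest WT line was 0.58 for Fgf5, 0.03 for Sox3, 0.11 for Sfrp2 and 0.12 for Pim2. Between repeat arrays, Cy3 levels of a line differed by up to 0.29 for Sox3 and 0.15 for Sfrp2, more than these gaps.

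The male DKO lines were set against T2KO 16 within Cy5, where no dye separates them but the slide does. By genotype they differ in Tet1, and Tet1, the slide and the single T2KO line cannot be told apart. All 8 members had a higher mean in the male DKO lines, with a median difference of 1.02, against 0.02 for all tested probes. Fgf5 was 2.41 higher (SE 0.585, 5.33-fold), Sox3 1.32 (SE 0.5), Pou3f1 1.26 (SE 0.373), Sfrp2 1.24 (SE 0.152), Pim2 0.80 (SE 0.291), Zic2 0.75 (SE 0.147), Foxd3 0.34 (SE 0.274) and Otx2 0.14 (SE 0.45). No member passed (limma, adjusted p from 0.327 to 0.909, 6 members under 0.05 before adjustment). Of all 25869 tested probes 0.00773% passed, with 3304 under 0.05 before adjustment. Both male DKO lines lay on 1 side of T2KO 16 for 7 members, against 74.0% of probes, which is near the background. With the background correction fitted on all spots, the difference was 1.11 for Fgf5, 0.82 for Sox3, 0.78 for Pou3f1, 0.74 for Sfrp2 and 0.48 for Pim2, and without 1 male DKO line Fgf5 had 1.71 (without 61) or 3.12 (without 51). T2KO 16 is a single line here as well, and the fit takes its spread from the DKO lines. The comparisons of T2KO 16 with T1KO 65 and with the male DKO lines share T2KO 16, so that its low levels enter both.

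**Figure D3:**
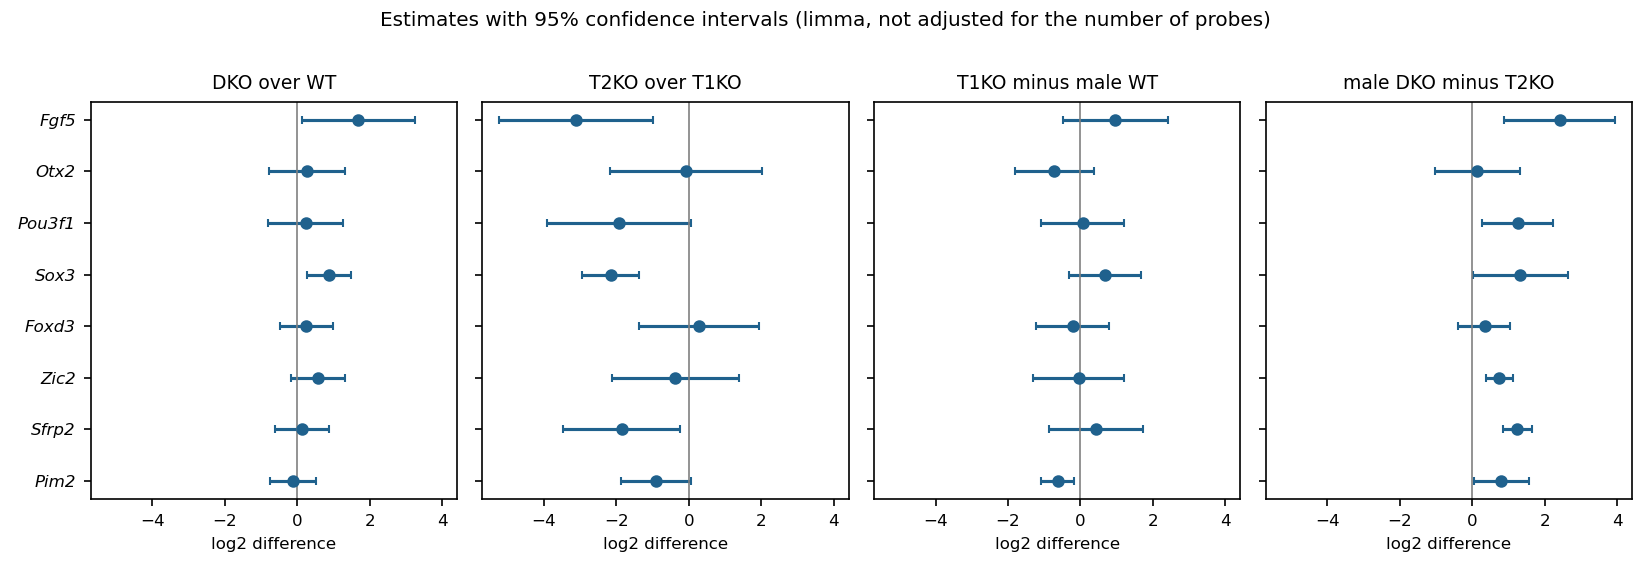
Log2 difference with its 95% confidence interval (limma, not adjusted for the number of probes; horizontal axis) for each gene (vertical axis) in 4 comparisons, with values above 0 higher in the group named first. Most members lie left of 0 in T2KO over T1KO, and all lie right of 0 in male DKO minus T2KO.

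The genes around the members in the pathway were described from fixed lists. Of 20 other formative and primed epiblast genes, 0 passed in any comparison by limma. In DKO over WT 9 of 20 were above 0 with a median of -0.13, and Tcf15 had 0.56 (SE 0.306) and Sox4 -0.51 (SE 0.17). In the pair 60/7 alone 15 of 20 were above 0, with a median of 0.38, and the other DKO pairs had medians of -0.33 to -0.03. In T2KO over T1KO 5 of 20 were above 0 with a median of -0.28, and in male DKO minus T2KO 14 of 20 were, with a median of 0.35. These medians are smaller than those of the 8 members, and the difference between the lists was not tested.

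Of 18 naive pluripotency genes 17 were tested, and none passed in any comparison by limma. In T2KO over T1KO 15 of 17 were above 0 with a median of 0.57, the opposite side from the members, and in male DKO minus T2KO 2 of 17 were, with a median of -0.45. In DKO over WT the median was -0.08, and the largest ratios were those of Dppa3 (-0.69, SE 0.286), Tdh (-0.67, SE 0.257) and Nr5a2 (0.45, SE 0.259). The 5 core pluripotency genes had a DKO over WT median of -0.05, with Lin28a at -0.22, Utf1 at -0.21 and Pou5f1, which encodes OCT4, at 0.06.

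FGF receptors and ERK targets carry the signal that FGF ligands such as FGF5 start. In DKO over WT 6 of 13 tested genes were above 0 and none passed. Fgfr3 (0.46, SE 0.0816, adjusted p = 0.0509 by limma) and Fgfr1 (0.38, SE 0.0856, adjusted p = 0.0773) were above 0 in all 4 pairs, and Spry2, a feedback inhibitor, had -0.46. In T1KO minus male WT 12 of 13 were above 0 with a median of 0.58, none of them past the test. Among 10 WNT antagonists and targets, Sfrp4 had 0.78 (SE 0.221, adjusted p = 0.112 by limma) and Dkk3 had 0.56 (SE 0.174, adjusted p = 0.13) in DKO over WT.

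Cells of other types were looked for with marker lists. In DKO over WT, 11 of 17 feeder markers were above 0 (median 0.03), with Lum at 0.48, Dcn at 0.32 and Tagln at -0.31. Of 12 neural progenitor genes 8 were tested and 2 were above 0 (median -0.24): Neurog2, a proneural factor, rose (0.72, SE 0.063, adjusted p = 0.0227 by limma), while Hes5 had -0.64 and Tubb3 -0.62 without passing. Neurog2 was dim, at 7.09 to 7.28 in the DKO and 6.38 to 6.51 in the WT lines, below every level of the members. It was also higher in T2KO 16 (Cy5, 6.96) than in the T1KO lines (Cy3, 6.56 and 6.64). Within Cy5, male DKO minus T2KO was 0.27 for Neurog2. The part of the dye was not tested. The 6 tested neural crest genes had a median of 0.05, with Ngfr at 0.36, Sox10 at 0.18 and Sox9 at 0.10. The 10 tested primitive endoderm genes had 0.14, with Lama1 at -0.79, Gata6 at 0.51 and Hnf4a at -0.47. Of 7 tested genes on the 2-cell-like list Sp110, an immune nuclear body gene, rose (0.67, SE 0.0563, adjusted p = 0.0227 by limma), while Usp17l5 had 0.24 and Tcstv3 -0.12. Sp110 was also higher in T2KO 16 over T1KO 65 (0.44), which differ in dye like DKO and WT. Within Cy5, male DKO minus T2KO was 0.03 for Sp110. The part of the dye in its rise was not tested. Tet1 (-2.11, adjusted p = 0.00777) and Tet2 (-2.10, adjusted p = 0.0227) fell and Tet3 had 0.05 (adjusted p = 0.675, all by limma).

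**Figure D4:**
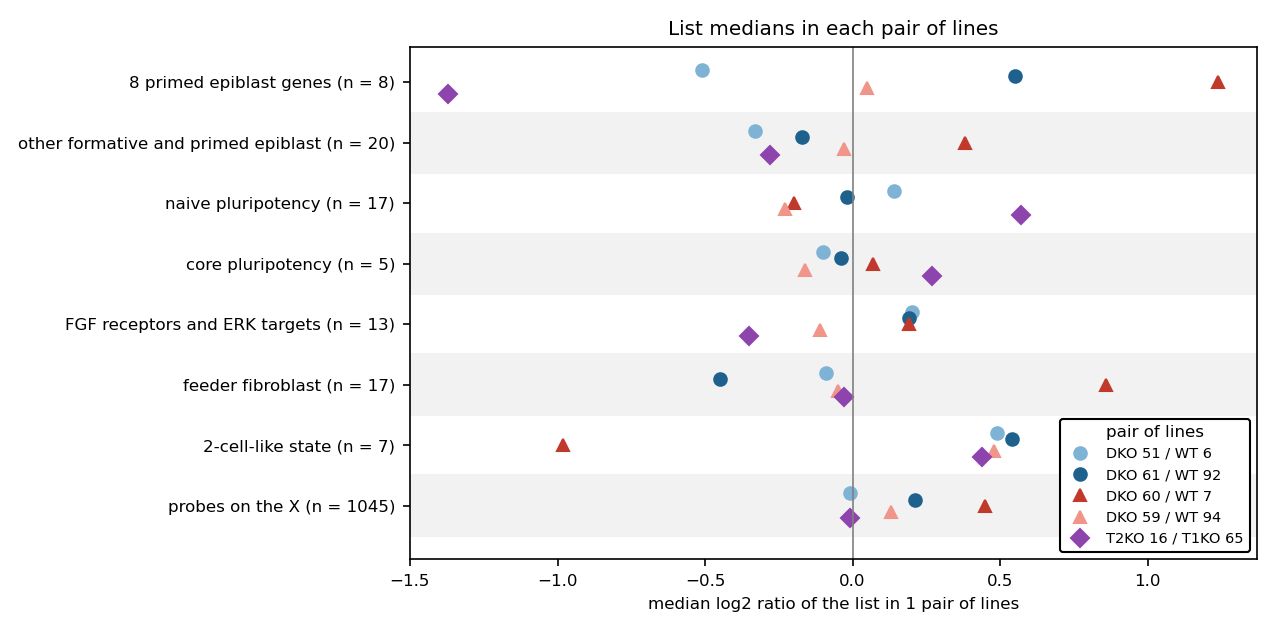
Median log2 ratio over the tested genes of a list (horizontal axis) in each pair of lines (colours and shapes) for 8 lists (vertical axis, with the number of probes). The 8 primed epiblast genes range from -1.37 in T2KO 16 over T1KO 65 to 1.24 in DKO 60 over WT 7, and in the second pair the feeder markers also lie to the right (0.86) and the 2-cell-like markers to the left (-0.98).

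To find genes with the same profile over lines, each member's levels in the 11 lines were correlated with the 4397 tested probes that span at least 1 log2 unit. Fgf5 was closest to Slc40a1 (r = 0.958), the iron exporter ferroportin, and Lrrn4 (0.955). Sox3 was closest to Ktn1 (0.967) and Tpbg (0.951), and Pou3f1 to Rab19 (0.933) and Tmem54 (0.908). Sfrp2 was closest to Tlr2 (0.944), a pattern recognition receptor, and Tmem79 (0.903). Zic2 was closest to its paralogs Zic1 (0.938) and Zic5 (0.89), of which Zic5 lies with Zic2 on chromosome 14 and Zic1 on chromosome 9. Whether these probes also bind each other's transcripts was not tested. Otx2 was closest to Ifi47 (0.896) and Rbm43 (0.852), Foxd3 to Dppa2 (0.841) and a probe with no gene name (0.837), and Pim2 to a probe with no gene symbol (0.961) and Bcl2l14 (0.849). Foxd3 and Otx2 had the weakest best matches. The best of so many correlations over 11 lines is high by selection.

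Since TET enzymes act on CpG sites, the CpG content of the members' promoters was read from RefSeq sequence of GRCm38.p6. The table held 8 promoters of 5 members (Fgf5, Otx2, Foxd3, Sfrp2 and Pim2). The 250 bases before the start held 24 CpG in Fgf5, 21 in Foxd3, 22 in Pim2, 16 in Sfrp2 and 9, 14, 8 and 6 in the 4 starts of Otx2, against a median of 6 over 32851 promoters. The GGGCGG box, searched on both strands, was in the windows of Fgf5 and Pim2 and in 32.7% of all promoters. The windows of Fgf5, the member that varied most over lines, and Foxd3, the one that varied least, are printed 5′ to 3′ with each CpG in capitals. The Fgf5 window is chr5:98253934-98254183 on the plus strand, and that of Foxd3 is chr4:99656049-99656298 on the plus strand.
Fgf5: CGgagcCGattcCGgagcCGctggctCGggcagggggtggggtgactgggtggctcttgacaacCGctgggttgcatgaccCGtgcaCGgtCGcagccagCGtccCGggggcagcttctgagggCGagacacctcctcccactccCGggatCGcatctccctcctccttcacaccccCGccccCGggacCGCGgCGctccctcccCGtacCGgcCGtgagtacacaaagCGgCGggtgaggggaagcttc
Foxd3: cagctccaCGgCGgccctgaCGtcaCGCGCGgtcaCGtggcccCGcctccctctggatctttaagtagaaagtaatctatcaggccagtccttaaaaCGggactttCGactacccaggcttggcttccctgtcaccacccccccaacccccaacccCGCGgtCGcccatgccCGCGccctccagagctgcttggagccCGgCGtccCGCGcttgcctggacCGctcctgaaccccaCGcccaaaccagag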

How the data were processed

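Per the file headers, each deposited scanner file gives a mean and a local background intensity per spot and dye, the scanner software's flags, and its log10 ratio of processed Cy5 over Cy3. The authors' deposited value table holds values close to a log2 ratio of Cy5 over Cy3, as judged against the ratios in the scanner files (r = 0.925 to 0.971, slope 0.835 to 0.882 on log2). How it was normalized and centred is not given in the sources used here. Of its 31595 probes 31539 matched, and its column medians were 0.00178, 0.00341, 0.00544, 0.00499, 0.00321, 0.00752, 0.00669, 0.00565, 0.00212 and 0.00685.

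Here, background was corrected with normexp (offset 50), with gene spots under their local background (71 to 122 per array) kept out of the fit. Loess within arrays and Aquantile between arrays followed. That last step also saw the excluded Cy5 channel. Outlier spots (173 to 337 per array) were left out, none was saturated, and 55.2% to 69.0% of the 43020 gene spots were well above background. Tested probes had to be well above background on every array of 1 or more groups (genotype and sex) in that group's dye. Repeat arrays were averaged, so the replicate is the pair of lines (DKO over WT, n = 4) or the line, and p-values measure the spread between these. The number of arrays limits the precision. Tests used limma 3.58.1 in R 4.3.3 (lmFit, eBayes, two-sided, Benjamini-Hochberg over all tested probes) and were checked on simulated data. Female lines entered the within-dye fits for the spread only.

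The members, gene lists and the normexp setting were chosen with earlier results of these arrays known. Genes named outside the members are Tet1, Tet2 and Tet3, list genes past the threshold, at most 3 per list with the largest DKO over WT ratio, and the 2 probes most like each member; 1 gene that this rule names is not reported here. Alternatives were other background corrections and normalizations, the authors' table, the filter, the variance prior, sex as covariate, and leaving out pairs or lines.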

Additional observations from a re-analysis of the deposited data

Results flagged for a closer look

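The Fgf5 level of WT 7 was 7.41, while the other 3 WT lines lay between 9.20 and 9.40. Its gap to the nearest line was 0.896 of the group's range, above the 95% critical value of Dixon's test for 4 samples. Of 24 groups of 4 lines or pairs examined for the 8 genes this was the only one, and chance gives about 1 in 20.

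The Pim2 ratio of DKO over WT was below 0 in both male pairs and above 0 in both female pairs. In 61/92 it was -0.09 on a single array, and Pim2 ratios differed by up to 0.16 between repeat arrays of other pairs. The sign in 61/92 is therefore not settled. The male minus female difference was -0.90 (SE 0.358, limma adjusted p = 0.835), so the difference was not past the test. Pim2 is X-linked, and its ratios were -1.05, -0.09, 0.47 and 0.18 in 51/6, 61/92, 60/7 and 59/94. The 1045 probes on the X had medians of -0.01, 0.21, 0.45 and 0.13 in the same order. Their shift and that of Pim2 were not tested against each other.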

How the results depend on the processing

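Over all alternatives, 328 values of members kept the direction and the side of the threshold reported, 21 reversed, and 3 passed the threshold only in the alternative (Fgf5 and Sox3, given above). Directions that reversed belonged to values whose intervals include 0. With normexp on all spots, Otx2 in T2KO over T1KO was 0.14 and Pou3f1 in T1KO minus male WT was -0.27. With median centring, Otx2 in T2KO over T1KO was 0.40 and Pim2 in DKO over WT was 0.15. Leaving out 1 pair at a time, DKO over WT ranged from -0.32 to 0.19 for Pim2, -0.24 to 0.57 for Otx2, -0.23 to 0.64 for Pou3f1, -0.01 to 0.51 for Foxd3 and -0.23 to 0.34 for Sfrp2, and from 1.04 to 2.34 for Fgf5, 0.69 to 1.16 for Sox3 and 0.30 to 0.93 for Zic2. Male minus female, refitted in the same way after the data were seen, ranged from -2.07 to 0.08 for Otx2, -0.93 to 0.34 for Foxd3, -1.17 to 0.71 for Zic2 and -1.34 to 0.38 for Sfrp2. Leaving out 1 line at a time, T1KO minus male WT ranged from -0.90 to 0.80 for Zic2, -0.23 to 0.37 for Pou3f1 and -0.71 to 0.27 for Foxd3, and Otx2 in male DKO minus T2KO from -0.05 to 0.34.

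The number of probes past the threshold in DKO over WT was 1035. It was 190 with normexp on all spots, 8319 with median centring (7639 rose, 680 fell), 537 in the authors' table, 1741 with the pair as a random block, 7 with sex as a covariate and 0 without any 1 pair (from 4491 to 6047 at an unadjusted p under 0.05 by limma). In male DKO minus T2KO it was 2, then 1 with normexp on all spots and 0 without either male DKO line (3189 and 4291 at an unadjusted p under 0.05 by limma). The cause was not tested. No paired analysis was possible because the labels' replicate numbers mark repeat arrays of the same lines; the pairs are those hybridised together and already form the ratios. All members were well above background in all labelled channels, so none of their values is a bound.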

Other observations

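Tested probes within 1 Mb of each member on the array's mm9 coordinates did not share the members' ratios in DKO over WT. The median over the neighbours lay between -0.14 (6 probes around Fgf5) and 0.14 (10 probes around Sox3). In DKO 60 over WT 7, where Fgf5 had 3.65 and Sox3 1.25, the same neighbours had medians of 0.17 and 0.45, the second equal to the median of all X-linked probes in that pair. In T2KO 16 over T1KO 65, where Fgf5 had -3.11 and Sfrp2 -1.85, the neighbours had medians of -0.14 and 0.05.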
